A study of Bos taurus with 2 samples.

Results

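Sarcomere genes were examined in muzzle tissue of HanWoo, the native Korean cattle, in 1 cow with a yellow muzzle (light-muzzle) and 1 cow with a black muzzle (dark-muzzle). Both were female and 30 months old, and the paper describes each as a representative of its colour, with tissue cut from the front of the muzzle. The list held 54 genes, taken by name from the proteins of the contractile filaments, the Z disc and M band that anchor them, and their chaperones and stress proteins. Probes were matched through their accession to a bovine RefSeq gene table (assembly ARS-UCD2.0), which gave 134 of the 43639 probes on the array to 42 of these genes. TNNI1, TNNI2, MYBPC2, MYH8, NEB, TTN, MYOM1, XIRP1, XIRP2, CMYA5, ANKRD2 and UNC45B were not analysed here.

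The sarcomere is the contractile unit of striated muscle. Thick filaments of myosin pull on thin filaments of actin, and the troponin complex with tropomyosin opens the thin filament when calcium arrives. Many of these proteins exist as isoforms from separate genes, one set for fast fibres, which contract quickly and tire early, and another for slow fibres, which rely on oxidative metabolism. The muzzle of cattle lies over facial muscle of the upper lip and nostril, and is itself made of keratinised epidermis, dermis and serous glands.

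RNA of each cow was hybridised to 1 single-colour Agilent array. Of 43803 noncontrol spots on each, the scanner software marked 78.8% (light-muzzle) and 81.9% (dark-muzzle) as well above background, and 0 were saturated. A level is the log2 processed intensity minus the 75th percentile of its array, and a log2 ratio subtracts a probe's light-muzzle level from its dark-muzzle level. A gene's values are means over its probes that were well above background in both cows. Where a gene had no such probe, its largest bound from a probe above background in 1 cow was used. Of 8914 genes with a symbol and a ratio, 8508 were measured in both cows. With 1 cow per colour there is no test and no error between animals, so each value compares these 2 cows, and the only spread available is that between probes of the same gene. That SD had a median of 0.17 (log2) over 5363 genes with more than 1 measured probe and of 0.27 over 39 sarcomere genes. How precise a ratio is was therefore limited by the number of arrays.

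All 42 matched genes were well above background in both cows and had a higher level in the dark-muzzle cow. At least 2-fold higher were 41 of them (97.6%), against 9.86% of the 8914 genes with a symbol and a ratio on these arrays, and 0 were at least 2-fold lower, against 6.47%. At least 4-fold higher were 40 (95.2%), against 3.17% of all genes, and at least 8-fold higher were 25 (59.5%), against 1.35%. The list was chosen with earlier results of these data known, so these shares describe the list and test nothing. The median log2 ratio of the sarcomere genes was 3.19, a fold of 9.13, while the median over all genes with a symbol was 0.065. Sarcomere genes made up 14.1% of the 283 genes that were at least 4-fold higher and 20.8% of the 120 that were at least 8-fold higher. Counted by probe, 130 of 134 were at least 2-fold higher, against 9.76% of all 36630 probes with a ratio, and 0 were at least 2-fold lower, against 7.17%. In a bulk piece of tissue, fewer muscle cells and less muscle RNA per cell cannot be told apart.

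**Figure D1:**
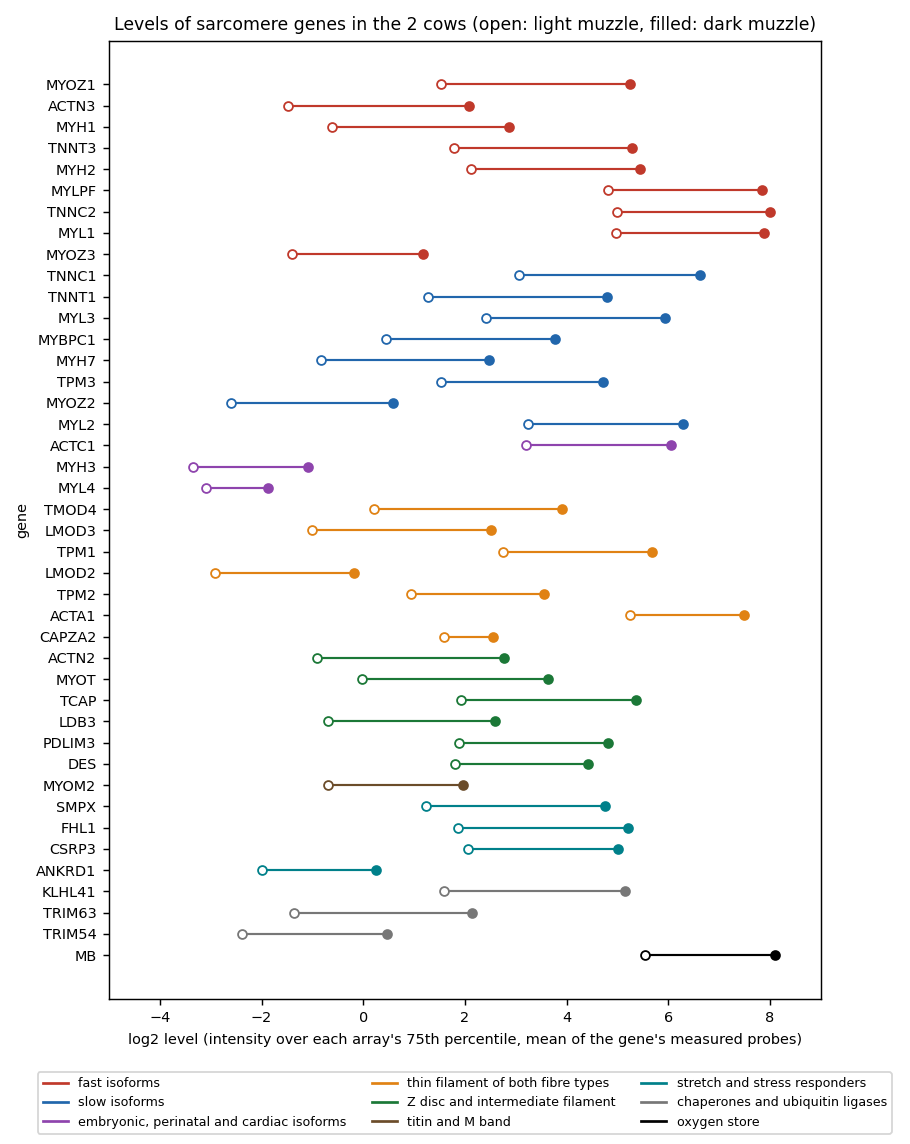
Log2 level (x axis, intensity over the 75th percentile of each array) of 42 sarcomere genes (y axis) in the light-muzzle cow (open circles) and the dark-muzzle cow (filled circles), coloured by role. Each line joins the 2 cows for 1 gene, every filled circle lies to the right of its open circle, and levels of different genes come from different probes and are not comparable with each other.

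The quartiles of the 42 log2 ratios were 2.77 and 3.50, and 25 genes lay between 8-fold and 16-fold. The SD of the ratio across the 42 genes was 0.61, against 0.90 across all genes with a ratio. The order began with MYOZ1 (3.72), TMOD4 (3.69), ACTN2 (3.68) and MYOT (3.66), which did not differ beyond the range of their probes. It ended with ANKRD1 (2.25), ACTA1 (2.24), MYL4 (1.22) and CAPZA2 (0.95). The probe ranges of MYL4 (1.19 to 1.25) and CAPZA2 (0.83 to 1.07) did not meet each other or that of ACTA1 (1.66 to 2.88). Both lay within the wider ranges of MYH3 (0.65 to 3.88), MYOM2 (0.51 to 3.70) and MYOZ3 (0.71 to 3.57).

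The myosin heavy chains of both fibre classes were higher in the dark-muzzle cow. MYH2, the motor of fast oxidative fibres, had a mean level of 2.12 in the light-muzzle and 5.44 in the dark-muzzle cow, a 9.98-fold difference over 4 probes with log2 ratios of 2.96 to 3.79. MYH1, the motor of faster, more glycolytic fibres, went from -0.62 to 2.88 over 5 measured probes, an 11.3-fold difference. A further MYH1 probe passed the background limit in the dark-muzzle cow alone, where it was at least 2.71-fold higher. MYH7, the heavy chain of slow fibres and of cardiac ventricle, went from -0.84 to 2.47 over 6 probes, a 9.91-fold difference with probe ratios of 2.78 to 3.66. In the RefSeq table MYH1, MYH2 and MYH3 follow each other on the chromosome. These heavy chains are close in sequence, the probe sequences were not examined here, and how far a probe binds several of them was not tested.

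The light chains of myosin, which stiffen and tune the neck of the motor, were also higher in both fibre classes. The fast essential light chain MYL1 went from 4.98 to 7.88 and the fast regulatory light chain MYLPF from 4.81 to 7.85. These are 7.46-fold and 8.19-fold differences. The slow and ventricular chains MYL3 (2.43 to 5.93) and MYL2 (3.24 to 6.29) were 11.4-fold and 8.25-fold higher in the dark-muzzle cow. MYBPC1, the slow form of the myosin-binding protein that braces the thick filament, was 10.1-fold higher, with 5 probes between log2 ratios of 3.26 and 3.48.

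Of the troponin complex, TNNC2, the calcium sensor of fast fibres, was read by 1 probe, at 4.999 in the light-muzzle and 8.01 in the dark-muzzle cow, an 8.07-fold difference. TNNC1, the sensor of slow fibres and heart, went from 3.06 to 6.62 over 3 probes, an 11.8-fold difference. The subunits that bind tropomyosin were nearly alike. Fast TNNT3 went from 1.78 to 5.28 and slow TNNT1 from 1.27 to 4.80, with log2 ratios of 3.50 and 3.53. The inhibitory subunits of both fibre classes were not analysed here.

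Fast and slow isoforms had nearly equal medians. The 9 measured fast isoforms, of 11 listed, had a median log2 ratio of 3.32 and a range of 2.57 to 3.72, and the 8 measured slow isoforms, of 9 listed, had a median of 3.32 and a range of 3.05 to 3.56. All 17 were at least 4-fold higher. The difference of the medians, fast minus slow, was -0.0048, with no error to set it against. Its sign depended on the processing and on the members of the lists, and it lay between -0.13 and 0.080 over the alternatives tried.

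Within 7 pairs of fast and slow isoforms of the same protein, the fast isoform had the higher ratio in 3 and the slow isoform in 4. MYH7 was the slow partner of both MYH1 and MYH2, and both these pairs are among the 3. In 4 pairs the ranges of the probes overlapped, and the differences of the ratios lay between -0.038 for TNNT3 against TNNT1 and 0.19 for MYH1 against MYH7. The ranges were apart in 3 pairs. MYL1 against MYL3 differed by -0.61 and TNNC2 against TNNC1 by -0.54, with the slow isoform higher, although TNNC2 had a single probe. MYOZ1 against MYOZ2, Z-disc partners of the phosphatase calcineurin in fast and slow fibres, differed by 0.53, with the fast isoform higher. These 3 differences kept their sign under 11 other normalizations, filters and probe summaries. Those of TNNT3 against TNNT1, MYLPF against MYL2 and MYH2 against MYH7 changed sign under at least 1 of these settings. Not every setting could move the 3 differences. Another percentile or no shift cannot change a difference of ratios. The other filters on dim probes, kept outlier spots and the authors' log2 values left all 3 as given.

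**Figure D2:**
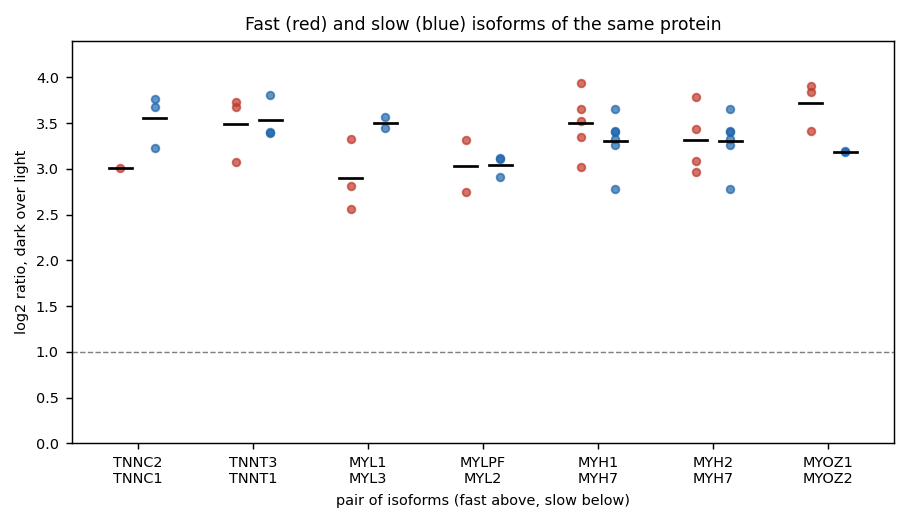
Log2 ratio of dark-muzzle over light-muzzle cow (y axis) for probes (points) and gene means (black bars) of 7 pairs of fast (red) and slow (blue) isoforms, with the dashed line at 2-fold. All points lie between 2.56 and 3.94, and the ranges are apart for TNNC2 and TNNC1, MYL1 and MYL3, and MYOZ1 and MYOZ2.

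Probes of the same gene differed in size. Brightness here is the mean of a probe's levels in both cows. In 22 of the 39 sarcomere genes with more than 1 measured probe, the brightest probe had the lowest ratio, and in 29 its ratio was below that of the dimmest. The median difference between the brightest and the dimmest probe of a gene was -0.22. These values were computed for the sarcomere genes alone, and whether other genes on the array show the same was not tested. The part of brightness in the differences between isoforms was not tested.

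ACTA1, the actin of adult skeletal thin filaments, was read by probes of unlike brightness. Levels of its 4 probes in the light-muzzle cow were 6.60, 6.41, 4.85 and 3.14, and the dark-muzzle cow had 8.26, 8.18, 7.49 and 6.02. In that order their log2 ratios were 1.66, 1.78, 2.64 and 2.88, so that the brighter pair of probes gave the smaller differences. Tropomyosins, which lie along actin and block myosin at rest, had ratios of 2.93 for TPM1 over 8 probes and 2.62 for TPM2 over 5 probes. TPM3, the slow-fibre tropomyosin that nonmuscle cells also make, had a ratio of 3.19, with 6 probes spread from 2.46 to 3.88.

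Proteins that cap or nucleate the thin filament ranged from 1.94-fold to 12.9-fold. TMOD4, a tropomodulin of skeletal muscle at the pointed end, went from 0.21 to 3.90, a 12.9-fold difference, and the leiomodins LMOD3 (1 probe) and LMOD2, which nucleate actin, were 11.5-fold and 6.71-fold higher. CAPZA2, a subunit of the capping protein at the barbed end that most cells make, went from 1.60 to 2.55. Its fold was 1.94, and it was the gene of the list that did not reach 2-fold.

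At the Z disc, where thin filaments of neighbouring sarcomeres are crosslinked, all 6 measured genes of 9 listed were at least 4-fold higher. ACTN2, the alpha-actinin of all striated fibres, went from -0.91 to 2.78 and ACTN3, that of fast fibres, from -1.49 to 2.08. Myotilin (MYOT) was 12.6-fold, telethonin (TCAP, 1 probe) 10.9-fold, LDB3 9.72-fold and PDLIM3 7.64-fold higher in the dark-muzzle cow. Desmin (DES), the intermediate filament that ties Z discs together and that smooth muscle also makes, was 6.05-fold higher. Its 4 probes disagreed in size, from 1.39 to 3.37.

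In the M band, which links thick filaments at the centre of the sarcomere, MYOM2 was the measured gene. It had a mean ratio of 2.67, from 3 probes between 3.20 and 3.70 and a dim one at 0.51. MYOZ3, a myozenin of fast fibres, showed the same pattern, with probes at 3.43 and 3.57 and a dim one at 0.71. In both genes the low value came from a probe that was below -2 on the log2 scale in both cows.

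Of 4 listed isoforms of developing muscle and heart, 3 were measured and all were at least 2-fold higher. Their median was 2.27, the value of MYH3. ACTC1, the cardiac actin that is also made in developing skeletal muscle, was 7.18-fold higher, with both probes near 2.84. MYL4, the light chain of embryonic muscle and atrium, went from -3.09 to -1.87, a 2.33-fold difference on which both probes nearly coincided. MYH3, the embryonic heavy chain, had a mean of 2.27 from probes at 0.65 and 3.88. These lie on both sides of the 2-fold mark, so its size is uncertain.

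Genes that respond to stretch, load and damage of muscle were higher too. CSRP3 and SMPX, which sit at the Z disc and costamere, were 7.73-fold and 11.5-fold higher, and FHL1 was 10.2-fold higher with 6 probes between 3.18 and 3.56. ANKRD1, a stress-induced ankyrin repeat protein that is not confined to muscle, was 4.75-fold higher, its 3 probes spanning 2.17 to 2.32. Of the ubiquitin pathway, TRIM63 (MuRF1), an atrophy-linked ligase, went from -1.36 to 2.14, and KLHL41, which stabilises nebulin, from 1.59 to 5.14. TRIM54, a ligase of the same family as TRIM63, was 7.28-fold higher. MB, the myoglobin that stores oxygen in muscle, went from 5.54 to 8.10, with a brighter probe at a ratio of 2.11 and a dimmer one at 3.01.

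**Figure D3:**
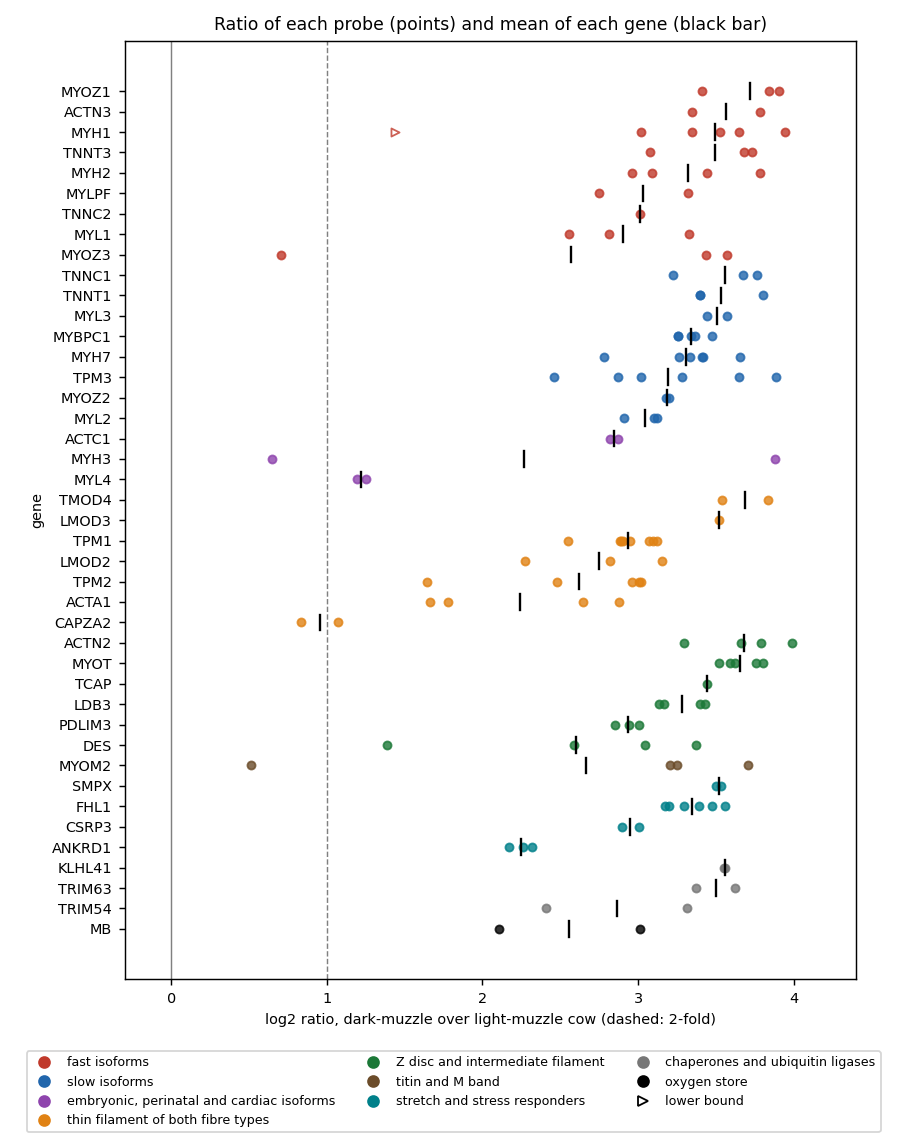
Log2 ratio of dark-muzzle over light-muzzle cow (x axis) for each probe (points) and the mean of each gene (black bars), for 42 genes (y axis) coloured by role; the open triangle is a lower bound. Most genes gather between 2.5 and 4, CAPZA2 and MYL4 lie near 1, and single low probes of MYOZ3, MYH3 and MYOM2 stand apart.

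A further 30 sarcomere-related genes gave 13 with a ratio, of which 9 were at least 2-fold higher and 0 at least 2-fold lower. The 13 had a median log2 ratio of 1.68, against 3.19 for the sarcomere genes above. MYBPH, a myosin-binding protein related to MYBPC1, was 16.6-fold higher by 1 probe. CAPN3, the muscle calpain, was 13.8-fold higher, and SMYD1, a methyltransferase needed for myosin assembly, 10.9-fold by 1 probe. CRYAB (1 probe), a small heat shock protein that protects desmin, and NRAP, an actin anchor, had log2 ratios of 2.56 and 2.24. PDLIM5, a relative of PDLIM3, was at 3.03, the light chain MYL6B (1 probe) at 1.68 and the atrophy-linked ligase subunit FBXO32 at 1.43. PDLIM7 was at 1.14, where its 5 probes spread from -0.16 to 3.01. The other 4 did not pass 2-fold. TNNT2, the troponin T of heart, went from -5.17 to -4.85, a ratio of 0.32. MYBPC3, the cardiac relative of MYBPC1, had a ratio of 0.14 from 2 of its 6 probes, with 3 others giving bounds. TNNI3, the cardiac troponin I, had a ratio of -0.98 and KLHL40, a partner of nebulin and leiomodin in skeletal muscle, one of 0.15, each from 1 probe.

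Relatives of the sarcomere proteins that serve the general cytoskeleton had a median log2 ratio of 0.12 over 16 measured genes, and 1 was at least 2-fold higher. TMOD1, a tropomodulin counted with the nonmuscle genes although striated muscle also makes it, was that gene, at 2.83, above LMOD2 of the thin filament list. The next ratio was that of ACTN4, a nonmuscle alpha-actinin, at 0.80, with probes at 0.068 and 1.53. ACTN1, the other nonmuscle alpha-actinin, was at -0.67 and MYH10, a nonmuscle myosin heavy chain, at -0.45. The sign of the median ratio of 10 smooth muscle genes, 0.042, turned under quantile normalization to -0.14, and 3 of the 10 (ACTG2, SMTN and LMOD1) were at least 2-fold higher. ACTG2 and SMTN each had a probe near 2.4 and another below 0.

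Fibre-type genes outside the sarcomere were divided. Of 9 fast-fibre genes, 7 were at least 2-fold higher, among them CASQ1, a calcium store of the sarcoplasmic reticulum (3.66), and PYGM, the glycogen phosphorylase of muscle (3.53). Parvalbumin (PVALB), the calcium buffer of fast fibres, was lower by its 1 probe, at -1.96 and -3.11 in the light-muzzle and dark-muzzle cow. Of 8 measured slow-fibre genes, 5 were at least 2-fold higher, among them CKMT2, the mitochondrial creatine kinase of muscle (3.74), and FABP3, a fatty acid carrier (3.34). CA3, the carbonic anhydrase of slow fibres, was lower, at -3.01 and -4.34, with 3 probes between -1.51 and -1.06, and PPARGC1A, a coactivator of oxidative metabolism, had a ratio of -0.83. GPD1, a glycerol phosphate dehydrogenase of the fast-fibre list, had a ratio of -0.14. PVALB and CA3 differed in direction from the contractile genes of their own fibre class.

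Markers of some other cell types in the muzzle also differed between the cows. Of all genes with a symbol and a ratio, 9.86% were at least 2-fold higher and 6.47% at least 2-fold lower. Of 8 measured serous gland genes 6 were at least 2-fold lower in the black muzzle, with a median of -2.44 and the lowest ratios for MSMB (-6.18) and PIP (-4.89). BPIFA1 went the other way and was at least 2-fold higher (1.29, from levels of -5.17 and -3.89), and LPO was at 0.57. Each of these named gland genes was read by 1 probe. The summed level of the 8 genes, on the log2 scale, was 8.04 in the light-muzzle and 3.95 in the dark-muzzle cow. Such a sum adds unlogged levels, so the brightest genes weigh most. It can be set between the cows for 1 list, but not between lists. Of 6 measured keratinocyte genes 4 were at least 2-fold higher, with summed levels of 8.86 and 9.59. KRT15 (1.75) and KRT10 (1.57, 1 probe) had the highest ratios. KRT5 and KRT14, which define basal keratinocytes, were well above background in both cows and had the lowest, -0.52 from levels of 6.32 and 5.80 and -0.41 from levels of 7.52 and 7.12. Of 6 endothelial genes 2 were at least 2-fold higher, with a median of 0.83. Of 6 adipocyte genes 3 were, with a median of 0.98, LEP entering as a lower bound. With probes above background on both arrays alone, the adipocyte median was 0.48. CIDEC (-1.48, 1 measured probe) was at least 2-fold lower. Of 6 melanocyte genes 4 were at least 2-fold higher, with a median of 1.48 and summed levels of 1.42 and 2.42, TYRP1 entering as a lower bound. Of 7 fibroblast genes 0 passed 2-fold, with a median of -0.42, and of 4 Schwann cell and nerve genes 0, with a median of -0.15. The neurofilament gene NEFL was well above background in neither cow. The summed level of the sarcomere genes was 8.07 and 10.99. The part of these other cell types in the sarcomere result was not tested, and muzzle colour, animal and place of sampling cannot be told apart with 1 cow per colour.

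**Figure D4:**
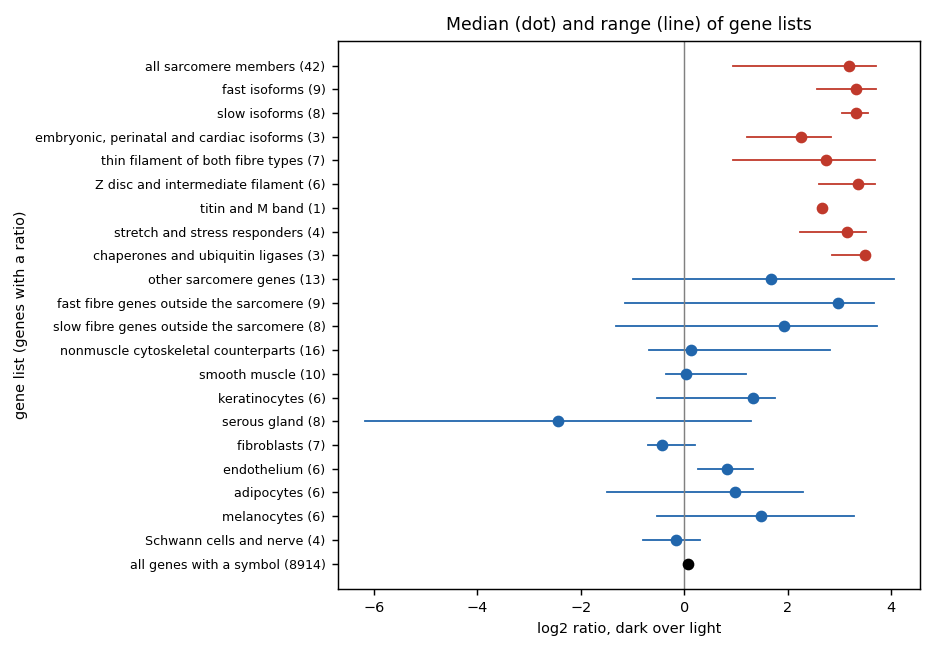
Median (dot) and range from lowest to highest gene (line) of the log2 ratio of dark-muzzle over light-muzzle cow (x axis) for gene lists (y axis, number of genes with a ratio in brackets), sarcomere lists in red, other lists in blue and the median of all genes in black. The red lists have medians from 2.27 to 3.50, while the blue lists lie between -2.44 for serous gland and 2.97 for fast-fibre genes outside the sarcomere. Among the blue lists are the further sarcomere-related genes, with a median of 1.68.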

How the data were processed

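The authors deposited 1 Agilent Feature Extraction 10.7.3.1 file per array (version per the submitters' processing notes), with a processed signal that is a background-subtracted intensity. They also deposited a GeneSpring table of log2 values, used as an alternative, which lay within 0.01 of the log2 levels computed here for all but 14 of 43639 probes. From each log2 processed signal the array's 75th percentile over noncontrol spots was taken off. Control spots and outlier flags were dropped, and replicate spots were averaged by probe. Probes well above background in both cows gave a ratio, those in 1 cow a lower bound. A gene is the mean of its measured probes or, where it had none, its largest bound. Accessions gave symbols to 20587 probes of 9647 genes, and MYL11 was read as its synonym MYLPF. The files hold no gene names and no promoter or protein sequences were used here, so alternatives by the file's own gene names and comparisons of sequences were not made.

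The members and lists were chosen with earlier results of these data known, and the look at probe brightness after the values were seen. All listed members were named. Of other lists, names could come from the 2 highest and 2 lowest ratios or from any further sarcomere gene. ACTG2, LEP, TYRP1 and NEFL were named after their values were seen. Alternatives were quantile, loess (span 0.3) and 50th percentile normalization, no shift, normexp (offset 50) on the median pixel signal, other filters, thresholds and probe summaries. The median of a list or a difference of a pair counted as changed where it moved by at least the median SD between probes of a gene, 0.17 (log2), and a single gene where it moved by at least the SD of its own probes. A sign change counted as a reversal where the value was at least that far from 0. That last limit was chosen after the values were seen, and sign changes of values nearer to 0 are stated as such. Tools were Python 3.11.15, numpy 2.4.6, pandas 2.3.3, and limma 3.58.1 in R 4.3.3. The counting was tested on simulated data, the light array with added noise and preset changes larger than the threshold. Background marks were the same on both simulated arrays, so lower bounds were not tried. The simulation checks the counting alone and says nothing on the precision of the ratios. No test was possible with 1 array per group.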

Additional observations from a re-analysis of the deposited data

How the results depend on the processing

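No paired analysis was possible because each colour had 1 cow. In each of 11 other normalizations, backgrounds, filters and probe summaries, all 42 sarcomere genes stayed above 0 and 40 or 41 were at least 2-fold higher; the median over them lay between 3.07 and 3.25. Under normexp MYL4 (0.95) joined CAPZA2 below 2-fold, and with the brightest probe of each gene MYH3 (0.65) did, while CAPZA2 passed it. The fast minus slow difference of medians changed sign with the median of the probes (0.080) and without MYBPC1 (0.010). MYH2 minus MYH7 changed sign under quantile (-0.041), loess (-0.023) and the median of the probes (-0.10), and MYLPF minus MYL2 under normexp (0.017). The fast median lay between 3.08 and 3.43 and the slow median between 3.20 and 3.41. In probes, 130 were at least 2-fold higher. The cause of the shifts that follow was not tested. Under normexp the medians were 1.70 for embryonic and cardiac isoforms, 2.54 for the thin filament, 3.24 for chaperones and ligases, 1.62 for slow-fibre genes outside the sarcomere, 0.47 for adipocytes and 1.09 for melanocytes, and MYH2 minus MYH7 was 0.22 and MYOZ1 minus MYOZ2 1.05. With the brightest probe the medians were 3.08 for fast isoforms, 1.19 for embryonic and cardiac isoforms, 3.01 for the thin filament, 3.20 for the M band, 2.11 for MB, -2.88 for serous gland and -0.67 for fibroblasts. The pair differences were then -0.21 for TNNC2 and TNNC1, -0.32 for TNNT3 and TNNT1, -0.88 for MYL1 and MYL3, 0.75 for MYH1 and MYH7, 0.18 for MYH2 and MYH7 and 0.23 for MYOZ1 and MYOZ2. With the median of the probes, TNNT3 minus TNNT1 was 0.28, and the thin filament was at 2.93, the M band at 3.23 and serous gland at -2.78. Quantile normalization gave -0.14 for smooth muscle and 1.16 for keratinocytes. With probes above background on both arrays alone, adipocytes were at 0.48. Over the whole array, 3575 probes were at least 2-fold higher and 2626 lower. These became 2132 and 1563 under normexp, 7226 and 5542 at 1.5-fold and 1620 and 1169 at 3-fold, and 6018 were higher without a filter on dim probes. The dimmest sarcomere genes in the light-muzzle cow were MYH3 (-3.35), MYL4 (-3.09) and LMOD2 (-2.92), where the lowest level well above background was -5.78.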
